A study of Mus musculus with 2 samples.

Results

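Transcript levels of 6 chemoattractant receptors were compared in M/E cells, which derive from mouse bone marrow and were immortalised with the leukaemia fusion gene MLL/ENL, with and without an active MEF2C. The receptors were Fpr1, Fpr2, C3ar1, C5ar1, Ptafr and Ltb4r1. They were taken by symbol from the probes of both arrays, with Fpr2 listed under its older name Fpr-rs2, and gave 6 genes with 9 probes among 27620 gene names with 41085 probes. The genes were selected on their processed signals in these same arrays, so their differences are given as a description and support nothing by themselves. Both cultures had the genotype Mef2c del/-, carry no functional Mef2c per the labels, and were selected with puromycin. The control carried the empty vector MYs-iPAC, and the other carried MYs-pMef2cASR, from which the cells make a permanently active MEF2C (a transcription factor) that cannot bind histone deacetylases (MEF2C-ASR). Cells grew in medium with 10% FCS, SCF at 100 ng/ml and IL6, GM-CSF and IL3 at 10 ng/ml each, and were harvested 6, 24 and 48 h after seeding. RNA of the 3 harvests was pooled, so each group is 1 Cy3-labelled array, and the labels name no second infection, clone or culture. Without replicates no test was run, and higher or lower is said of this pair of arrays alone.

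Chemoattractant receptors are membrane receptors that couple mainly to inhibitory G proteins and guide neutrophils, monocytes and macrophages toward infection and tissue damage. The formyl peptide receptors recognise peptides that start with formylmethionine, made by bacteria and mitochondria. C3ar1 and C5ar1 bind the complement fragments C3a and C5a, Ptafr binds the lipid platelet-activating factor, and Ltb4r1 is the high-affinity receptor of leukotriene B4. In the bone marrow such receptors appear mainly as granulocyte and monocyte precursors mature.

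Fpr1 and Fpr2 lie next to each other on chromosome 17 in the RefSeq annotation of the mouse assembly GRCm38.p6, on opposite strands, with their annotated starts 3885 bases apart. The 250 bases before the start of the 3 receptors that reached 2-fold upward with MEF2C-ASR are shown, since these genes differed in the same direction after a transcription factor was introduced. All 6 receptors matched an entry in the RefSeq promoter table. The Fpr1 window is chr17:17883940-17884189 (minus strand), the Fpr2 window chr17:17887574-17887823 (plus strand) and the C5ar1 window chr7:16259339-16259588 (minus strand), each 5′ to 3′ with motif matches in capitals.
Fpr1: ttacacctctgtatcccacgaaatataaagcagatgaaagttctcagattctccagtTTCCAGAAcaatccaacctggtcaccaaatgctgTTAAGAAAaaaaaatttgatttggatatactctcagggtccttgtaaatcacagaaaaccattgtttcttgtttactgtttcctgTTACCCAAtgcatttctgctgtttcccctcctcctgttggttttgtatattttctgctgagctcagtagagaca
Fpr2: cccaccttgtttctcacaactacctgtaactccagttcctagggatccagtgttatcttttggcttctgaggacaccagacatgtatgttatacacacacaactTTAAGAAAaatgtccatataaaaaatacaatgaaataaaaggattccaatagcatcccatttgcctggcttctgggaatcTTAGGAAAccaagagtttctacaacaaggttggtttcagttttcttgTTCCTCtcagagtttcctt
C5ar1: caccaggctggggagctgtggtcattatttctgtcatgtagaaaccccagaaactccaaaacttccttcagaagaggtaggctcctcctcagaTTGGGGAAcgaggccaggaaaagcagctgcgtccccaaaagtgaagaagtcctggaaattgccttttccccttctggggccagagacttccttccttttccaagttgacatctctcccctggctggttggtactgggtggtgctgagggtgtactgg
Searched on both strands were the MEF2 motif, the PU.1 core GAGGAA, the C/EBP motif TTNNGNAA and the AP-1 motif TGANTCA, which may overlap each other. The MEF2 motif was found in none of the 6 windows and in 2.92% of 32851 RefSeq promoter windows of the same length. The C/EBP motif was found 3 times before Fpr1, 2 times before Fpr2 and 1 time before C5ar1, and in 36.8% of all windows. The PU.1 core was found before Fpr2, Ptafr and Ltb4r1 (23.3% of all windows) and the AP-1 motif before C3ar1 (6.75%). A match is a description of letters and not a binding site, and a window without one says nothing about the factor elsewhere.

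**Figure D1:**
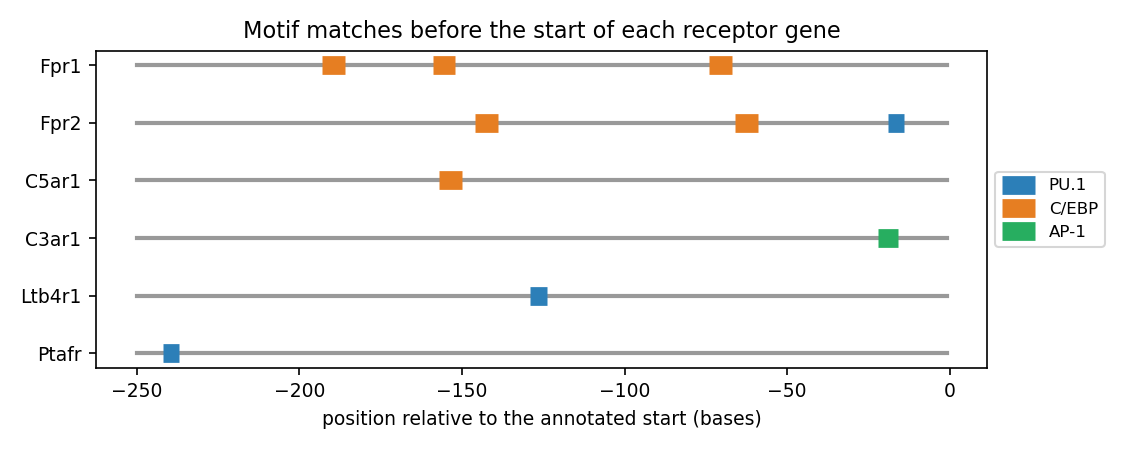
Motif matches in the 250 bases before the annotated start of each receptor gene, with the position in bases from the start on the horizontal axis and 1 line per gene. C/EBP matches lie on the lines of Fpr1, Fpr2 and C5ar1, PU.1 matches on those of Fpr2, Ltb4r1 and Ptafr, and an AP-1 match on that of C3ar1.

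Fpr1, the receptor through which neutrophils respond to bacterial formyl peptides, had the largest difference of the 6. Its probe A_51_P312485 read 305 ± 31.7 in the control and 2055 ± 206 with MEF2C-ASR in processed signal, a spot's background-subtracted brightness on a linear scale, where ± is the error the scanner software gives for the spot. Fpr1 was well above background on both arrays and brighter with MEF2C-ASR. After each array was scaled to its 75th percentile, Fpr1 was 6.90-fold higher, a log2 difference of 2.79 with a scanner error of 0.21. Of 16574 genes measured on both arrays, 6 had a larger difference upward. Probes of like level that were printed 10 times varied less than this, with an error of a difference of 0.10 (log2). The file places the Fpr1 probe on chromosome 17 from base 16047726 to 16047785. The sources used here do not give the build of these positions, so exon or UTR is not stated for any of the probes.

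Fpr2, which binds formyl peptides and also host proteins such as serum amyloid A and annexin A1, was 2.22-fold higher. Probe A_51_P288138 (chromosome 17, 16064657 to 16064716) read 592 ± 59.7 in the control and 1369.8 ± 137 with MEF2C-ASR. Probe A_52_P109378 (16064046 to 16064105) gave 141 ± 16.2 and 284 ± 28.7. Both probes were brighter with MEF2C-ASR, and their log2 differences of 1.25 and 1.05 lay within their scanner errors of 0.21 and 0.22 of each other. The second probe also lists the Fpr3 transcript in the file, so part of its signal could come from that relative. Fpr2 on the first probe alone differed by 1.25. The mean log2 difference of Fpr2 was 1.15 with a scanner error of 0.15, which is 1.64 below that of Fpr1 (scanner error of the gap 0.26). Scaling the arrays by their spike-in spots moved the median of all genes by -0.21, and Fpr2 then stood at 0.93, below 2-fold.

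The complement receptors differed from each other. C5ar1, the receptor of the strong neutrophil attractant C5a, read 46.3 ± 9.23 in the control and 162 ± 16.7 with MEF2C-ASR (probe A_51_P279542, chromosome 7, 14010926 to 14010985). C5ar1 was well above background on both arrays but close to the limit on the control array, where the dimmest spot counted as well above background had a signal of 38.3. It was 3.58-fold higher, a log2 difference of 1.84 with a scanner error of 0.32, and 59 genes had a larger difference. With normexp at offset 50, a background correction that adds a constant to every signal, C5ar1 differed by 1.02. Probes of like level printed 10 times had an error of a difference of 0.23.

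C3ar1, the receptor of C3a, was alike on both arrays. Probe A_51_P282557 (chromosome 6, 122885185 to 122885244) read 53.7 ± 11.0 in the control and 52.5 ± 7.51 with MEF2C-ASR. Its log2 difference was 0.0022 with a scanner error of 0.36, so 2 errors span -0.72 to 0.72, and at this signal a difference below that size was not detectable. The second probe, A_52_P81345 (122885659 to 122885718), did not pass the background limit in either culture, with signals of 8.49, a substituted value, and 9.42. Both complement receptors were dim in the control, and of the pair C5ar1 alone was brighter with MEF2C-ASR.

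The receptors for lipid attractants were within 2-fold. Ltb4r1, which draws neutrophils toward leukotriene B4, read 7603 ± 760.3 in the control and 9629 ± 963 with MEF2C-ASR (probe A_51_P109449, chromosome 14, 50635691 to 50635750). Ltb4r1 was slightly brighter with MEF2C-ASR, with a log2 difference of 0.38, and 2 scanner errors span -0.03 to 0.78. Bright probes printed 10 times had an error of a difference of 0.057, but the spread between cultures is not known.

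The 2 probes of Ptafr, the receptor of platelet-activating factor, went in opposite directions. Probe A_51_P292250, for which the file gives a span of 612 bases at chromosome 4, 131957798 to 131958409, read 64.3 ± 10.1 in the control and 51.3 ± 6.65 with MEF2C-ASR. Probe A_51_P430014 (131958749 to 131958808) read 74.1 ± 10.8 and 93.7 ± 10.2. The first was dimmer and the second brighter with MEF2C-ASR, at log2 differences of -0.29 and 0.37, each within 2 scanner errors of 0. The mean over both was 0.041 with a scanner error of 0.20, and no direction is given for Ptafr.

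**Figure D2:**
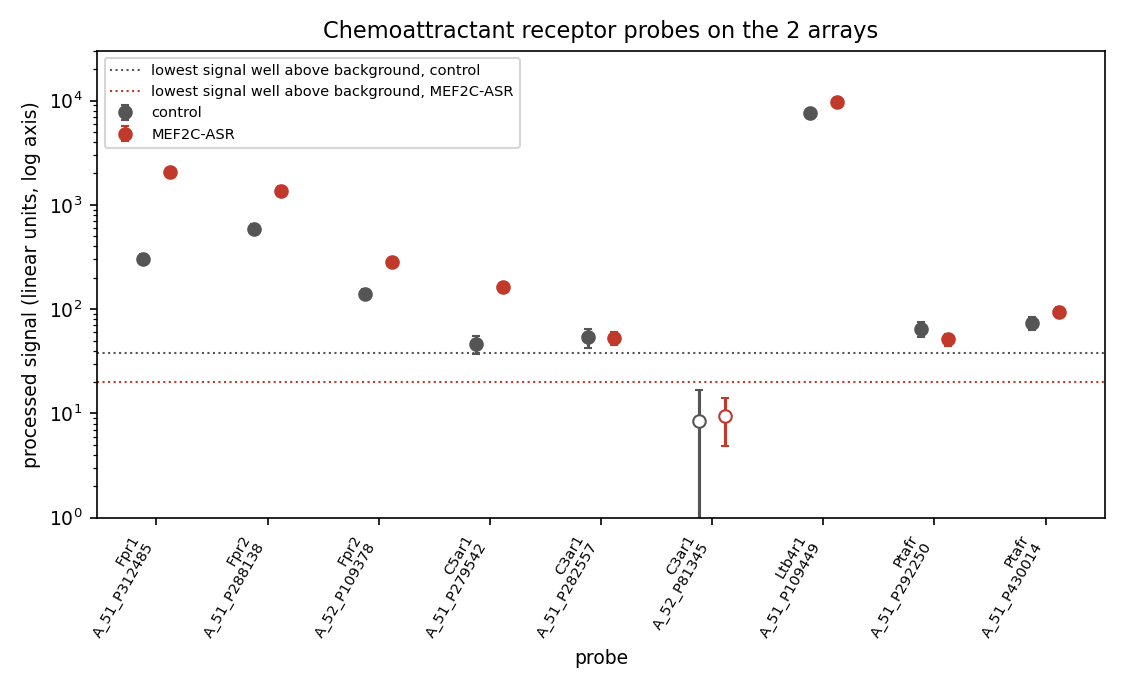
Processed signal of each receptor probe on the control array (grey) and the MEF2C-ASR array (red), on a log axis, with the scanner software's error as bars and open circles for spots not well above background. Fpr1, both Fpr2 probes and C5ar1 are brighter on the MEF2C-ASR array, and the C3ar1, Ltb4r1 and Ptafr pairs lie close together; the dotted lines are the lowest signals well above background, 38.3 and 20.0.

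In all, 3 of the 6 receptors reached 2-fold upward (2 with spike-in scaling) and 0 downward, and all 6 had a probe measured on both arrays. Among all 16574 measured genes 1.74% were at least 2-fold higher and 1.91% at least 2-fold lower. Nothing is read from the count of receptors, because the genes were chosen with these differences known. The share differed with level. With the genes split by mean level into 4 classes of like size, the class that holds Fpr1 had 1.33% of genes 2-fold higher and 0.579% lower, and that of Fpr2 had 2.41% and 1.74%. The dimmest class, which holds C5ar1, C3ar1 and Ptafr, had 2.29% and 5.16%, and the brightest, which holds Ltb4r1, had 0.941% and 0.145%. The genes with the log2 difference nearest to that of Fpr1, among genes whose mean level reached the 25th percentile, were Il1b (2.77), the gene of the inflammatory cytokine interleukin-1 beta, Ccl2 (2.81), the gene of a monocyte-attracting chemokine, and D930048N14Rik (2.84). This likeness rests on 1 difference per gene over 2 arrays and depended on the background correction. Under normexp at offset 50 Fpr1 stood at 2.57, Il1b at 2.29, Ccl2 at 1.98 and D930048N14Rik at 1.99.

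**Figure D3:**
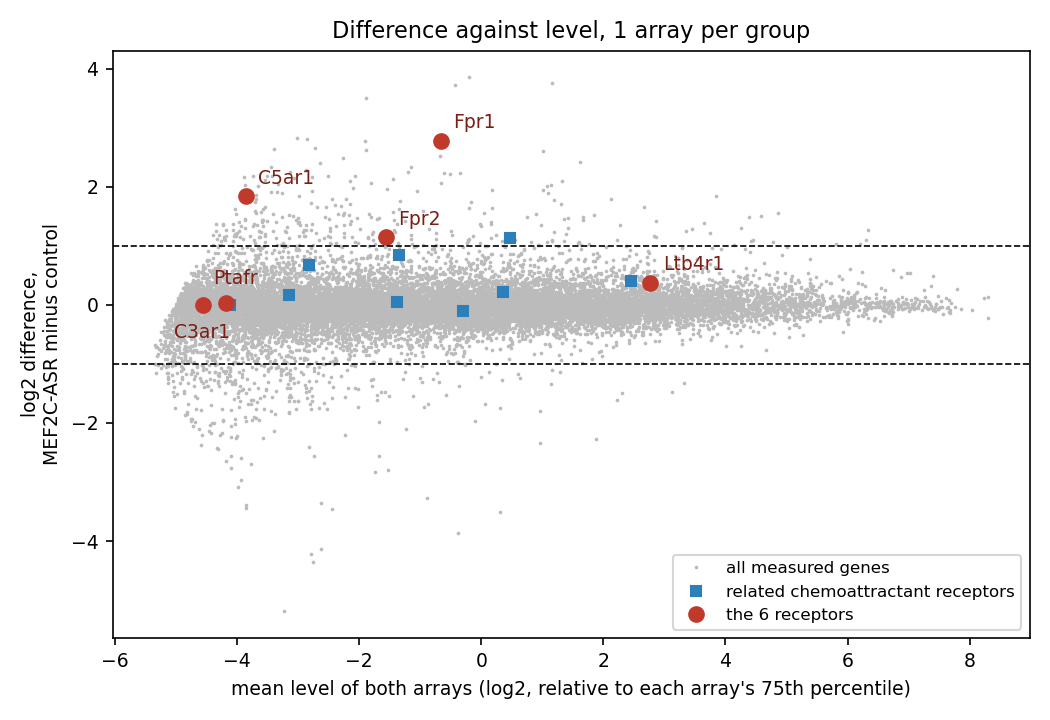
Log2 difference, MEF2C-ASR minus control, against the mean log2 level of both arrays relative to their 75th percentiles, with all measured genes as grey dots, the 6 receptors as red circles and related receptors as blue squares. Fpr1 (2.79), C5ar1 (1.84) and Fpr2 (1.15) lie above the dashed line of 2-fold, and C3ar1, Ptafr and Ltb4r1 lie between the dashed lines.

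Related receptors were mostly within 2-fold. Of 16 listed, 14 were on the array, 9 were measured on both arrays, and 1 was at least 2-fold higher and 0 lower, with a median log2 difference of 0.22 (0.0026 with spike-in scaling). Hcar2, the receptor of nicotinic acid and beta-hydroxybutyrate, was that one, reading 1187 in the control and 2553 with MEF2C-ASR (1.14, and 0.93 with spike-in scaling). Among all measured genes 1.74% were at least 2-fold higher and 1.91% lower, with a median of -0.03 (-0.24 with spike-in scaling). This list too was written with earlier results of these arrays known. The nearest relatives were looked at by family and position, outside the rule for naming genes. Among the other formyl peptide receptors, Fpr-rs3 read 142 in the control and 223 with MEF2C-ASR (0.68), and Fpr-rs4, Fpr-rs6 and Fpr-rs7 were not well above background on either array. C5ar2, the second C5a receptor, lies next to C5ar1 on chromosome 7 and gave 1069 and 968 (-0.11). Ltb4r2, the low-affinity leukotriene B4 receptor next to Ltb4r1 on chromosome 14, gave 73.0 and 71.4 (0.0046). So C5ar1 differed by 1.84 beside a neighbour within 2-fold, and Ltb4r1 was within 2-fold like its own. Has1, the gene beside Fpr1 on the side away from Fpr2, did not pass the background limit in either culture, with signals of 8.62 and 7.75. Foxj2 (0.26) and Necap1 (0.12), on either side of C3ar1, and Dnajc8 (0.26) and Eya3 (-0.07), on either side of Ptafr, were within 2-fold.

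Genes that make, remove or act as ligands of these receptors held the most members past 2-fold among the pathway lists. Of 22 measured, 5 (22.7%) were at least 2-fold higher and 0 lower, with a median of 0.34 (0.13 with spike-in scaling). Among all measured genes 1.74% were at least 2-fold higher and 1.91% lower, with a median of -0.03 (-0.24 with spike-in scaling). The list was written with earlier results of these arrays known, so its count is a description. Saa3 and Saa1 encode serum amyloid A proteins, which act on Fpr2. Saa3 read 1751 in the control and 5559 with MEF2C-ASR (1.70), and Saa1 2174 and 5239 (1.31, and 0.79 with all probes kept). Camp, the cathelicidin whose peptide acts on Fpr2, gave 2461 and 6528 (1.44). Lpcat2, an enzyme that makes platelet-activating factor, gave 2416 and 6626 (1.49). The fifth, Cyp4f18, which breaks down leukotriene B4 in neutrophils, gave 586 and 1354 (1.24) and is named after its values were seen. All 5 were brighter with MEF2C-ASR and stayed at least 2-fold higher with spike-in scaling. Saa1 has a near-identical relative, Saa2, and part of its signal may come from that gene, which was not tested. Saa2 read 34.7 in the control, not well above background, and 41.7 with MEF2C-ASR. The value of Saa1 with all probes kept averages in signal from outside the probes measured on both arrays. Annexin A1 (Anxa1, 0.93) and the leukotriene synthesis genes Alox5 (0.45), Alox5ap (0.13) and Lta4h (0.26), named after their values were seen, were within 2-fold, as were C3 (0.42) and Hc, the gene of C5 (0.26).

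Of the machinery behind the receptors, few genes differed by as much as 2-fold. None of 15 measured G protein genes did, with a median of 0.056 (-0.16 with spike-in scaling), and the brightest, Gng5 and Gnb2, differed by 0.056 and 0.18. Of 27 transducers of chemotaxis 2 were higher, with a median of 0.12 (-0.09 with spike-in scaling). Among them was the tyrosine kinase gene Fgr, reading 177 in the control and 465 with MEF2C-ASR (1.43). Of 6 NADPH oxidase genes, which make the oxidative burst of phagocytes, Cybb was 2.01-fold higher. Its log2 difference was 1.01, or 0.79 with spike-in scaling and 0.88 with normexp, both below 2-fold. The median log2 difference of the 6 was 0.22 (0.0030 with spike-in scaling). None of 14 desensitisation genes was past 2-fold, with a median of 0.11 (-0.10 with spike-in scaling), Arrb2 at 0.18 and Grk2 at 0.14. Over all 109 genes of these lists, 93 were measured, 9 (9.68%) were at least 2-fold higher and 0 lower, and the median was 0.15. The same values over all measured genes were 1.74% higher and a median of -0.03. With spike-in scaling the medians were -0.06 and -0.24, and 7 of these genes were at least 2-fold higher. The lists were written with earlier results of these arrays known, so this contrast is a description.

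**Figure D4:**
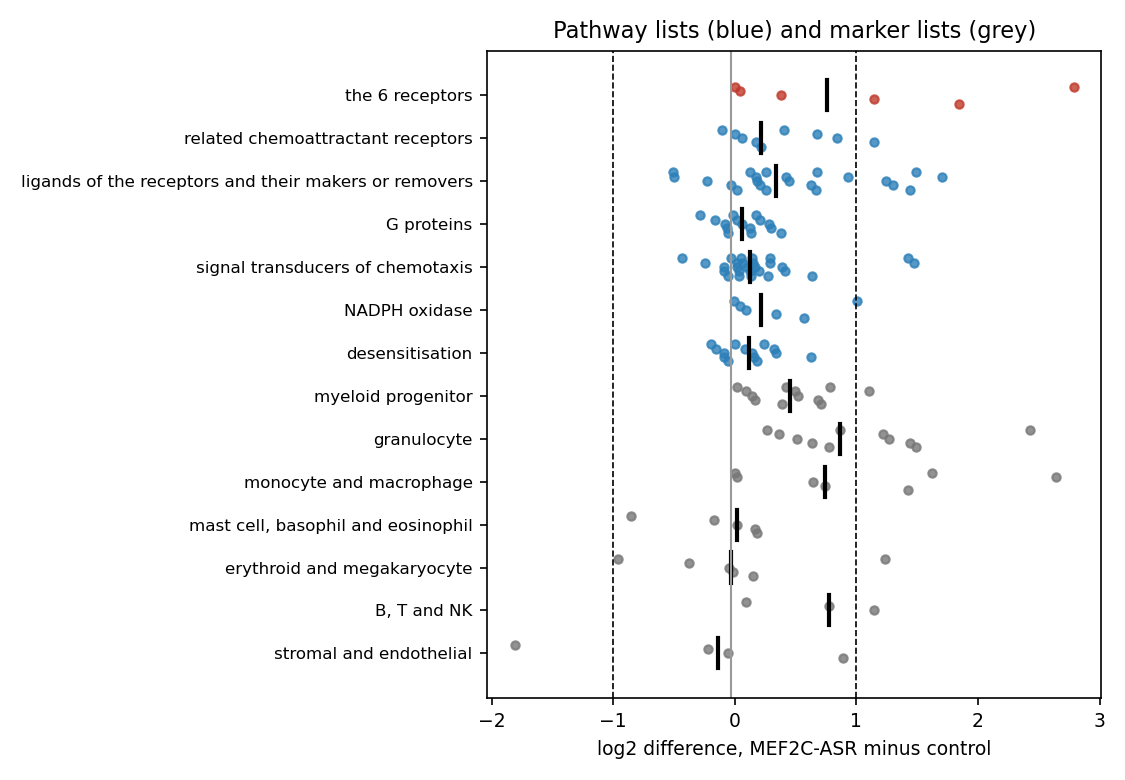
Log2 difference, MEF2C-ASR minus control, of each measured gene (points) and the median (black bar) for the 6 receptors (red), the pathway lists (blue) and the marker lists (grey), with dashed lines at 2-fold and a grey line at the median of all genes. The ligand list reaches 1.70, and the G protein list lies between -0.29 and 0.38.

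Markers of myeloid progenitors as well as of maturing myeloid cells were mostly higher on the MEF2C-ASR array. All 12 myeloid progenitor markers were well above background on both arrays, with a summed signal of 435224 in the control and 542598 with MEF2C-ASR. Ctsg (207062 and 204890) and Mpo (68289 and 143027) weighed heavily in that sum. All 12 had a difference above 0, with a median of 0.46. With spike-in scaling 8 were above 0 and the median was 0.24. Mpo, the neutrophil granule peroxidase, was the only one past 2-fold (2.15-fold, and a log2 difference of 0.89 with spike-in scaling). Among 11 granulocyte markers on the array, all 11 were measured and 5 were at least 2-fold higher (median 0.86, and 0.65 with spike-in scaling), and the summed signal was 368214 and 531723. Mmp8 (2.42), Retnlg (1.49), Camp (1.44) and S100a8 (1.27) led them, followed by Cxcr2, named after its values were seen (1.22, and 0.88 with normexp). S100a9 (258469 and 302976) and S100a8 (66154 and 155457) made up most of the granulocyte sum, so it says little about the other granulocyte markers. Of 10 monocyte and macrophage markers 7 were measured and 3 were at least 2-fold higher. They were Msr1 (2.64, 3.64 when all probes are kept and 1.70 after normexp), Csf1r (1.62) and Ccr2 (1.42). Msr1 was dim in the control, where its measured probe read 48.5, close to the limit of 38.3. The list had a median of 0.74 and a summed signal of 100032 and 100541. Ly6c1 made up most of that sum (96067 and 93022) and differed by 0.016, so the sum says little about the other markers. Marco differed by 0.0048. The macrophage marker Mrc1 was not above the background limit in either culture. Over all measured genes 1.74% were at least 2-fold higher and 1.91% at least 2-fold lower, with a median of -0.03. The marker lists were written with earlier results of these arrays known, so their counts are a description. The part of these markers in the receptor differences was not tested, and in bulk RNA more cells of a type and more RNA per cell cannot be told apart. Measured were also 5 of 8 mast cell, basophil and eosinophil markers, 6 of 7 erythroid and megakaryocyte markers, 3 of 8 B, T and NK markers, and 4 of 8 stromal and endothelial markers. Their summed signals per list ranged from 449 to 1107 in the control and from 547 to 1009.7 with MEF2C-ASR. In these lists Pf4 (1.24) and Cd79a (1.15) were higher, the latter at 0.93 after spike-in scaling and 0.63 after normexp, and Pdgfrb was lower (-1.81, and -0.72 with normexp). Mef2c itself read 795 in the control and 1969 with MEF2C-ASR (1.34, and 0.68 with all probes kept). Which part of Mef2c the deletion removes is not in the labels, so these probes do not check the genotype. Of 43379 spots per array, 60.1% passed the background limit in the control and 67.5% with MEF2C-ASR, and the negative control spots had an SD of 15.5 and 3.08. The scanner errors of C5ar1, C3ar1 and Ptafr were larger relative to the signal in the control.

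The order of the receptors by difference, Fpr1 above C5ar1 above Fpr2, with the other 3 below 2-fold, was the same under 10 other processing settings wherever all 3 had a value. Fpr2 lay 0.69 below C5ar1 as reported, and 2 scanner errors of Fpr2 minus C5ar1 span -1.41 to 0.02. Their order is therefore within the scanner error, and the settings only reprocess the same 2 arrays. The deposited value table, among these settings, holds the same signals and could not change the order. With the brighter probes alone C5ar1, C3ar1 and Ptafr had no value. Fpr1 stayed between 2.57 and 2.81 under them, and C5ar1 between 1.02 and 1.87. A further setting, added later, turned the direction of Fpr2 (-0.16) and C5ar1 (-1.52). It was normexp fitted with outlier spots included, among them 6 spots of the control array with a local background above 1000 (median 38). Among the 6 receptors, C3ar1 (-2.65) and Ptafr (-2.27), which stood near 0 as reported, also fell below 0 under it. The same setting gave values below 0 for genes outside the 6 that are named above with a positive difference. These were Ccl2 (-0.41), D930048N14Rik (-0.42), Fpr-rs3, C3, Hc, Ltb4r2, Fgr, Msr1, Marco (-1.18), Cxcr2, Pf4 and Cd79a.

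**Figure D5:**
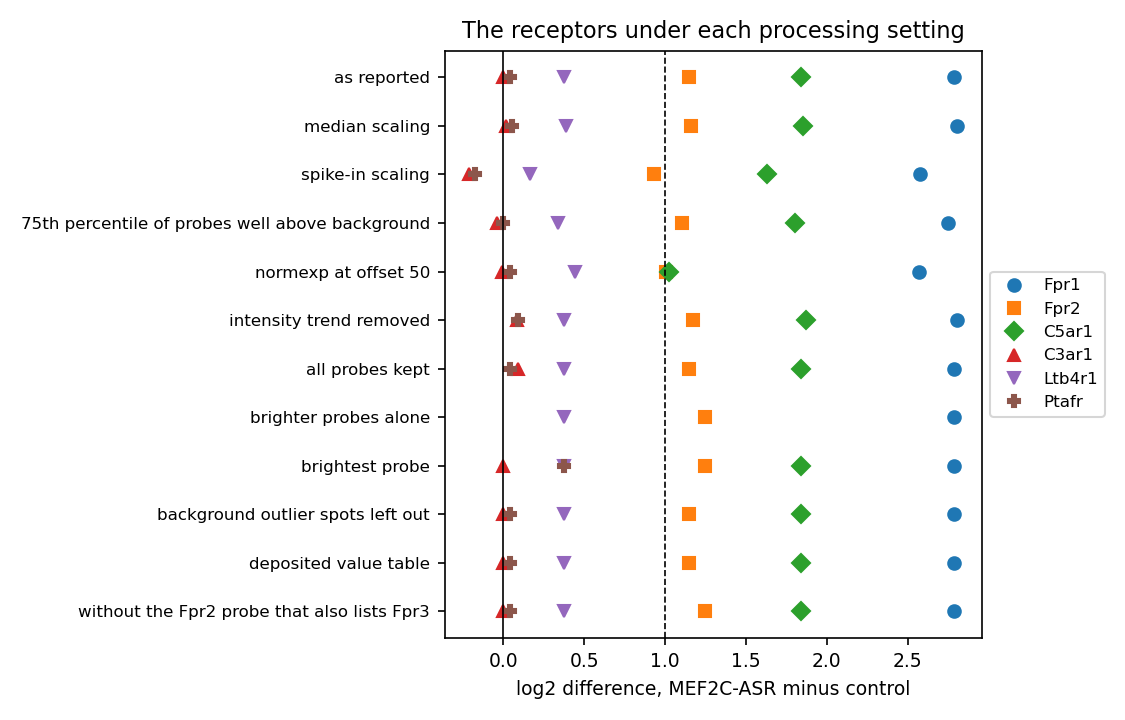
Log2 difference of each receptor (symbols) as reported and under 11 other processing settings, without the normexp fit that included outlier spots. Fpr1 lies at 2.57 or more in each, C5ar1 comes next to Fpr2 with normexp at offset 50 (1.02 and 1.01), and Fpr2 passes below 2-fold with spike-in scaling (0.93).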

How the data were processed

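The scanner files hold intensity values of 1 array per group, which Feature Extraction 9.5.1.1 made by background subtraction and detrending, per the file headers, with no normalization between arrays. The deposited value table holds the same intensity values, unlogged and uncentred (medians 85.8 and 83.2, largest relative difference 0). Flags for well above background, saturated and outlier spots came, per the file headers, from the same software. Signals were converted to log2 here, and each array's 75th percentile over 43379 non-control spots (1272 and 1240.3) was subtracted. Outlier spots (202 and 201) were left out, spots of a probe averaged, and a gene was the mean over probes well above background and unsaturated on both arrays. Of 41085 probes, 22916 were named by accession, 6638 by symbol and 3101 by older symbol in RefSeq GRCm38.p6. Another 8430 matched none of these, kept the name given on the array, and count as genes under that name. With 1 array per group no test was possible, and at least 2-fold (1 on the log2 scale), with all probes of 1 sign, stands in. Spotting errors came from 144 probes printed 10 times.

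Members, lists and rules were chosen with earlier results of these data known. Named are the 6 receptors, Mef2c, up to 4 genes past 2-fold in each list (or the 2 brightest where none was), and the 3 genes nearest Fpr1, except items not reported here. Background correction by normexp used limma 3.58.1, fitted without outlier spots, and the trend fit statsmodels 0.14.6. The steps were tested on simulated arrays, both built from the control array with its background flags and the same noise at every level. That test therefore does not cover dim genes, whose noise and detection differed between the real arrays.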

Additional observations from a re-analysis of the deposited data

How the results depend on the processing

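No paired analysis was possible because each group is 1 array. Spike-in scaling lowered the differences of Fpr1 to 2.57, Fpr2 to 0.93, C5ar1 to 1.63, Ltb4r1 to 0.16, C3ar1 to -0.21 and Ptafr to -0.17, and gave 187 genes higher and 503 lower (27.1% of calls higher, against 47.8%). Normexp at offset 50 gave 2.57 for Fpr1, 1.01 for Fpr2 and 1.02 for C5ar1, with 175 genes higher and 108 lower (61.8% of calls higher). Ptafr with its brightest probe stood at 0.37. Keeping all probes gave 790 genes higher and 980 lower, and the brighter probes alone 100 and 34 (74.6% of calls higher).

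Normexp fitted with outlier spots, run after the data were seen, gave 1.40 for Fpr1, -0.16 for Fpr2, -1.52 for C5ar1, -2.65 for C3ar1, -2.27 for Ptafr and 0.94 for Ltb4r1. It counted 1 receptor higher and 3 lower, 6543 genes lower and 10 pathway genes lower. The highest local background on the control array was 63509, against 62.5 on the MEF2C-ASR array, and leaving outlier spots out of the fit removes these reversals.

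In all, 113 of the recomputed values stayed within the limits set for them, 26 moved and 2 reversed. Part of the 113 could not have moved. The deposited value table holds the same signals. The choice of probes cannot alter the value of Fpr1, C5ar1 or Ltb4r1, which have 1 probe each. Leaving out the probe that also lists Fpr3 bears on Fpr2 alone among the receptors. The limits were 0.13 (log2), the spotting error of a difference, or 1.5 times a count. Signal over background limits C5ar1, C3ar1 and Ptafr, and no setting stands in for a second culture.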
